A study of Homo sapiens with 4 samples.

Results

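The thioredoxin and peroxiredoxin system was examined as 10 genes of the 61806 in the count table, chosen by symbol: TXN, TXNRD1, TXNIP, SRXN1 and the peroxiredoxins PRDX1, PRDX2, PRDX3, PRDX4, PRDX5 and PRDX6. All 10 have a row. The study asked how human cancer cells respond to CPYPP, a small-molecule inhibitor of DOCK proteins that was examined there as an inducer of paraptosis, a form of cell death with swollen organelles. Poly(A) RNA was sequenced from MDA-MB-231, a breast cancer line, and from MDA-MB-435, a line that the labels call melanoma. Each line gave 1 control library and 1 library after CPYPP at 10 µM for 6 h, and the genotype of every library is given as WT. Because the culture and dosing texts name MDA-MB-435 for all 4 libraries, each library was assigned by its own cell line label. The dose and time of the treated MDA-MB-231 library therefore rest on a text that names the other line.

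The libraries held between 17196385 and 22663954 counts. With 1 library per condition there is no replicate check: a difference within a line compares 2 libraries, not 2 conditions, and its 95% interval (exact Clopper-Pearson) covers counting error only. Among 6 melanocyte markers, 4 reached at least 10 counts in each MDA-MB-435 library and 2 to 3 did so in the MDA-MB-231 libraries. SOX10 stood at 3031 and 707 counts in MDA-MB-435 control and CPYPP and at 0 and 1 in MDA-MB-231. DCT also separated the lines, with 658 and 464 counts in MDA-MB-435 against 1 and 3. MITF did not: MDA-MB-231 had 1585 and 690 counts, while MDA-MB-435 had 1405 and 809. PMEL was low and went the other way, with 34 and 29 counts for MDA-MB-231 against 13 and 4. The pigment genes MLANA (8 to 14 counts in the 4 libraries) and TYR (0 to 3) were near 0 in both lines. Of 7 breast epithelial markers, 6 reached at least 10 counts in each MDA-MB-231 library and 5 did so in each MDA-MB-435 library, with summed counts of 40097 and 26530 against 7104 and 4881. The list did not separate the lines throughout: KRT19 had 3953 and 2225 counts in MDA-MB-231, while MDA-MB-435 had 4 and 0, but KRT18 had 5740 and 4077 counts in MDA-MB-435, GATA3 had 83 to 242 over the 4 libraries, and ESR1, the estrogen receptor, was low everywhere, with 2 and 9 counts in MDA-MB-231 and 24 and 20 in the other line.

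Thioredoxin is a small protein that reduces disulfides in other proteins. The selenoenzyme thioredoxin reductase restores it with electrons from NADPH, and TXNIP binds thioredoxin and restrains it. Peroxiredoxins are abundant enzymes that destroy peroxides with a reactive cysteine, and most of them are recycled by thioredoxin. When that cysteine is oxidised too far, sulfiredoxin, the product of SRXN1, repairs it in some of the peroxiredoxins, though not in all. Several genes of this system, among them TXNRD1 and SRXN1, are well-known targets of NRF2, a transcription factor of the oxidative stress response, which binds antioxidant response elements. TXNIP is a classic target of MondoA and ChREBP, which read glucose metabolites and bind carbohydrate response elements.

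The promoters of the 3 genes that changed most are shown, with any match to those elements marked. Each sequence is the 250 bases before a RefSeq gene start (GRCh38.p14), written 5′ to 3′ on the strand of the gene. Capitals mark matches on either strand to the antioxidant response element core TGACNNNGC, or to the short site CACGAG of the carbohydrate response element.

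TXNRD1, first start, chr12:104215529-104215778, plus strand: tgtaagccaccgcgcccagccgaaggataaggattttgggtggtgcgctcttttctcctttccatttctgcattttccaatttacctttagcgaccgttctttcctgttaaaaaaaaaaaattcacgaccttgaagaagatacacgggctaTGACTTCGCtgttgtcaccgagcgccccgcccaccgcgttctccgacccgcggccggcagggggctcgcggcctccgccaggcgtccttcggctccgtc

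TXNRD1, second start, chr12:104286782-104287031, plus strand: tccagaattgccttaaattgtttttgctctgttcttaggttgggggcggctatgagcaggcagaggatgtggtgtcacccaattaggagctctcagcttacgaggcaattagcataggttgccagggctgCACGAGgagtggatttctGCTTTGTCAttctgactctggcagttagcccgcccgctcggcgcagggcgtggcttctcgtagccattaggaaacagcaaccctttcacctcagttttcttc

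TXNIP, chr1:145996580-145996829, minus strand: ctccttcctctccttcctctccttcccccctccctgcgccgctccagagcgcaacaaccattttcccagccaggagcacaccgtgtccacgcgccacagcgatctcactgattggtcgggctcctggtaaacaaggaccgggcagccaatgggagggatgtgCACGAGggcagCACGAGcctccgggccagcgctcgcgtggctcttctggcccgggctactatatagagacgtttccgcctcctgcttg

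SRXN1, chr20:653201-653450, minus strand: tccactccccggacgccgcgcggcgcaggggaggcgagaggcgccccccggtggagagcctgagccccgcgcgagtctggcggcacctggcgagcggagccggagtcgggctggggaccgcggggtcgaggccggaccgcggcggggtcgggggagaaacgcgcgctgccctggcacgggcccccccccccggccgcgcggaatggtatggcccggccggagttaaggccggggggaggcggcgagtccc

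The first TXNRD1 window holds 1 antioxidant response element core on the strand of the gene, 99 to 91 bases before the start. The second window, inside the gene, holds 1 core on the opposite strand, 102 to 94 bases before its start, and 1 carbohydrate response short site at bases 120 to 115. The TXNIP window holds the short site 2 times on the strand of the gene, at bases 88 to 83 and 77 to 72, and no antioxidant core. The SRXN1 window holds neither motif, which says only that these letters are not in this stretch. Of 35116 windows of this length, 10.9% hold the antioxidant core and 5.58% the short site. A heat shock element pair, TTCNNGAA, is in 6.62% of the windows. In total, 8 of the 10 genes matched 11 windows, with none for PRDX1 and PRDX6. The other 7 windows, with a second TXNIP start inside the gene among them, hold none of the 3 motifs. A match is a run of letters and not evidence of binding.

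In the comparison of CPYPP with control, TXNRD1 and SRXN1 rose and TXNIP fell in both lines, and no other gene of the 10 passed the threshold in either. A gene was called where edgeR's binomial test gave a Benjamini-Hochberg adjusted p-value under 0.05 and the fold change was over 2. In MDA-MB-231, 2 of 10 genes were higher, where 4.22% of the 16441 tested genes were, and 1 was lower, where 3.09% were. In MDA-MB-435, 2 of the 9 tested genes were higher against 3.17% of 16527, and 1 was lower against 6.52%. PRDX1 was not tested in MDA-MB-435 because it had no counts there. The median log2 fold change over the tested members was -0.02 in MDA-MB-231 against 0.21 in MDA-MB-435, beside -0.01 and -0.02 over all tested genes. The genes were selected with results of these libraries known, so the counts describe the set and give it no independent support.

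**Figure D1:**
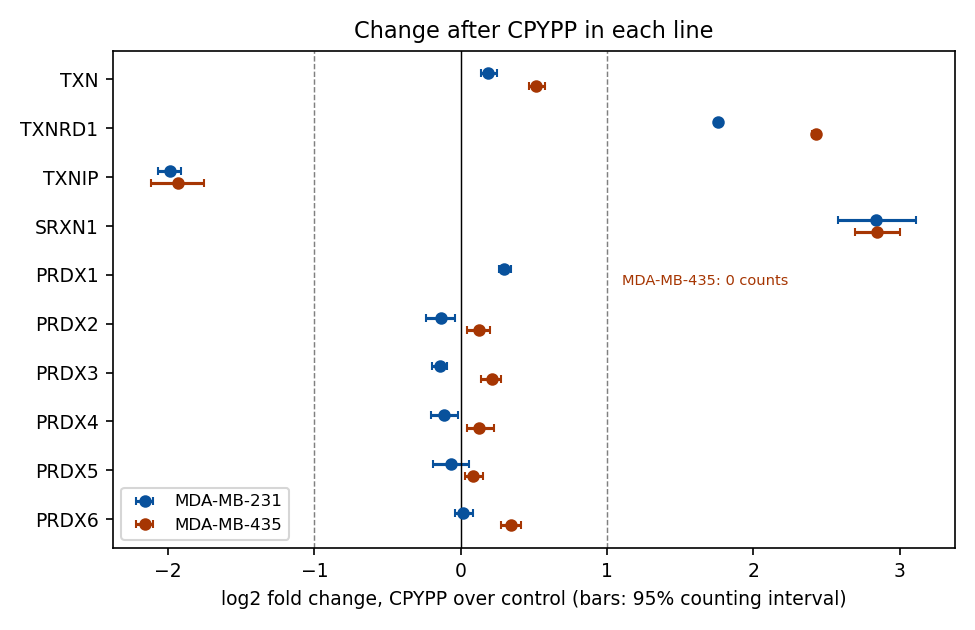
log2 fold change (CPYPP over control) of each gene in MDA-MB-231 (blue) and MDA-MB-435 (brown), with 95% counting intervals as bars and dashed lines at a fold change of 2. TXNRD1 and SRXN1 lie to the right of the dashed line in both lines, TXNIP lies to the left at -1.99 and -1.93, and the remaining genes lie between the lines; PRDX1 has no value in MDA-MB-435.

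TXNRD1, the cytosolic thioredoxin reductase (ENSG00000198431, GRCh38 chr12:104215779-104350307, plus strand), had 24308 counts in control and 60158 in CPYPP-treated MDA-MB-231. In MDA-MB-435 it had 14383 and 59957 counts. Both treated libraries were above both controls. In TPM (counts per exon length, scaled to a common sum in every library), the level went from 643 to 2210 in MDA-MB-231 and from 372 to 1880 in the other line. The fold change came to 3.38 (3.33 to 3.43) in MDA-MB-231 against 5.38 (5.28 to 5.47) in MDA-MB-435. As a share of all counts, TXNRD1 went from 0.109% to 0.35% in MDA-MB-231 and from 0.0635% to 0.308% in MDA-MB-435. EID3, a short gene on the same strand within the TXNRD1 span (1467 bases), had 16 and 193 counts in MDA-MB-231, while MDA-MB-435 had 10 and 654. RPL18AP3, also on the same strand (528 bases), had 688 and 553 counts in MDA-MB-231, while MDA-MB-435 had 753 and 684. Reads of the shared stretches cannot be assigned with certainty, although both genes had far fewer counts than TXNRD1 in every library.

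SRXN1, sulfiredoxin (ENSG00000271303, chr20:646615-653200, minus strand), had the lowest summed count of the genes with counts in every library. It had 137 counts in control and 719 in CPYPP-treated MDA-MB-231, while MDA-MB-435 had 399 and 2224. The control of MDA-MB-435 lay between the 2 MDA-MB-231 libraries. The fold change came to 7.16 (5.96 to 8.66) in MDA-MB-231 against 7.19 (6.46 to 8.02) in MDA-MB-435, the largest of the 10 genes in each line. A gene on the same strand that spans 6575 bases of SRXN1, ENSG00000270299, had at most 14 counts in a library. That stretch is nearly the whole span of SRXN1. Its reads cannot be assigned with certainty, so the SRXN1 level may be undercounted.

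TXNIP, the inhibitor of thioredoxin (ENSG00000265972, chr1:145992435-145996579, minus strand), had 8408 counts in control and 1550 in CPYPP-treated MDA-MB-231. In MDA-MB-435 it had 1505 and 306. Scaled for depth and length, the treated MDA-MB-231 library stood at 106 TPM, above the untreated MDA-MB-435 library at 72.5 TPM, and the treated MDA-MB-435 library was the lowest at 17.9 TPM. TXNIP was 3.97-fold lower (3.76 to 4.2) after CPYPP in MDA-MB-231 against 3.81-fold lower (3.37 to 4.33) in MDA-MB-435.

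TXN, thioredoxin itself (ENSG00000136810, chr9:110243810-110256507, minus strand), had 4872 and 4087 counts in control and CPYPP-treated MDA-MB-231, while MDA-MB-435 had 4712 and 5241. Its fold change came to 1.14 (1.1 to 1.19) in MDA-MB-231 against 1.43 (1.38 to 1.49) in MDA-MB-435, under the 2-fold threshold in both. The TPM ratio of TXN to TXNIP was 2.07 in control and 9.41 in treated MDA-MB-231, while MDA-MB-435 had 11.2 and 61.1. The TPM ratio of TXNRD1 to TXN was 0.751 and 2.22 in MDA-MB-231, while MDA-MB-435 had 0.459 and 1.72. These ratios are of transcripts and do not give protein or redox state.

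**Figure D2:**
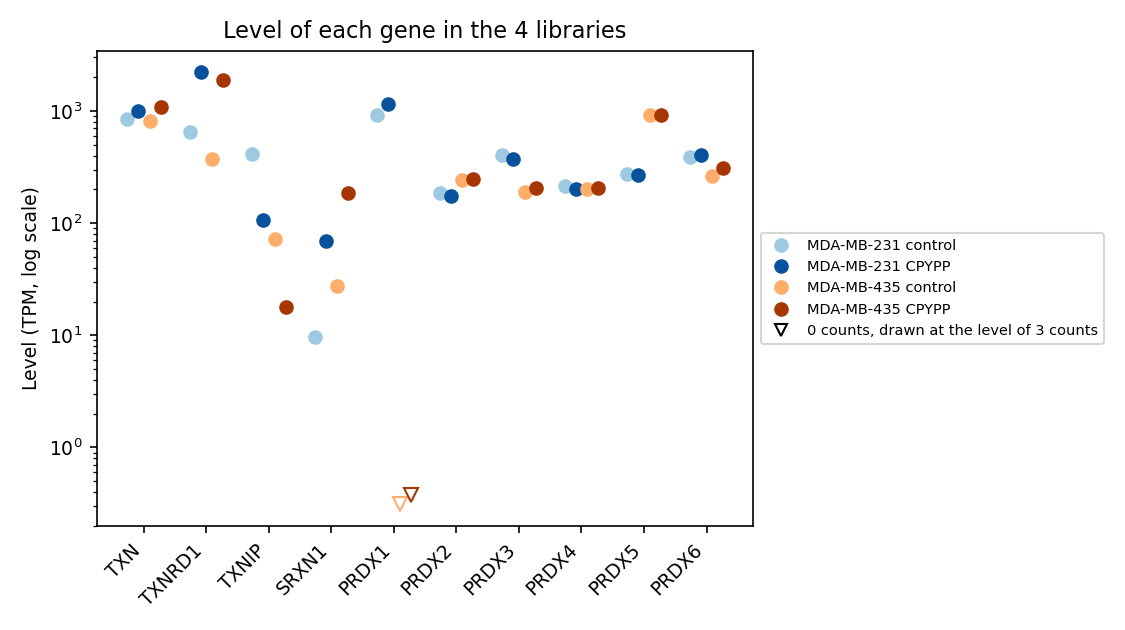
Level of each gene (TPM, log scale) in the 4 libraries, 1 point per library, with light colours for control and dark colours for CPYPP. SRXN1 is lowest in MDA-MB-231 control at 9.61 TPM and highest in treated MDA-MB-435 at 186 TPM, TXNIP spans 17.9 to 414 TPM, and the open triangles place PRDX1 in MDA-MB-435 at the level that 3 counts would give.

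None of the peroxiredoxins was called after CPYPP in either line. PRDX1, a cytosolic peroxiredoxin (ENSG00000117450, chr1:45510914-45542732, minus strand), had 8711 counts in control and 7879 in treated MDA-MB-231, or 1.23-fold (1.20 to 1.27). It had 0 counts in both MDA-MB-435 libraries, so no fold change can be given there. A count of 0 allows up to 3 counts, or 0.31 TPM in the control and 0.376 TPM in the treated library.

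PRDX2, the other abundant cytosolic form, had 2143 and 1427 counts in MDA-MB-231, while MDA-MB-435 had 2823 and 2385. PRDX3, the mitochondrial form, had 7686 and 5097 counts in MDA-MB-231, while MDA-MB-435 had 3692 and 3312. PRDX4, the form of the endoplasmic reticulum, had 2226 and 1510 counts in MDA-MB-231, while MDA-MB-435 had 2149 and 1824. After scaling, the CPYPP libraries of these 3 genes differed from their controls by at most 1.16-fold, upward in MDA-MB-435 and downward in MDA-MB-231. The fold changes in MDA-MB-231 were 0.909 (0.849 to 0.972), 0.905 (0.873 to 0.938) and 0.926 (0.867 to 0.989) for PRDX2, PRDX3 and PRDX4. In MDA-MB-435 they were 1.09 (1.03 to 1.15), 1.16 (1.1 to 1.21) and 1.09 (1.03 to 1.17). Under scaling by total counts PRDX2 and PRDX4 fall slightly below 1 in MDA-MB-435, so the upward direction rests on the scaling. PRDX2 shares 4981 bases, its whole span, with HOOK2 on the same strand, which had 95 to 574 counts. Reads of that stretch cannot be assigned with certainty either.

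PRDX5, a peroxiredoxin of mitochondria, peroxisomes and cytosol, had 1338 and 937 counts in MDA-MB-231, while MDA-MB-435 had 4526 and 3730. Its fold change came to 0.956 (0.878 to 1.04) in MDA-MB-231 against 1.06 (1.02 to 1.11) in MDA-MB-435, the latter falling to 0.958 under scaling by total counts. PRDX6, the 1-Cys form that uses glutathione rather than thioredoxin, had 5087 and 3783 counts in MDA-MB-231, while MDA-MB-435 had 3480 and 3429. Its fold change came to 1.01 (0.973 to 1.06) in MDA-MB-231, where scaling by total counts turns it to 0.967, and 1.27 (1.21 to 1.33) in MDA-MB-435. The antisense gene PRDX6-AS1 had 24 to 55 counts, and strand was not stated for the counting.

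Summed over the 5 peroxiredoxins other than PRDX1, the counts changed 0.942-fold (0.921 to 0.964) after CPYPP in MDA-MB-231 against 1.14-fold (1.11 to 1.16) in MDA-MB-435. The summed level of the 6 genes was 2390 TPM in control and 2570 TPM in treated MDA-MB-231, while MDA-MB-435 had 1810 and 1890 TPM. Against this, the TPM ratio of the 6 peroxiredoxins to SRXN1 was 248 in control and 36.7 in treated MDA-MB-231, while MDA-MB-435 had 65.9 and 10.2. The sum takes in every peroxiredoxin, whether or not sulfiredoxin repairs it, so the ratio is not one of substrate to repair enzyme. It also carries the uncertainty of the shared reads of SRXN1 and PRDX2.

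**Figure D3:**
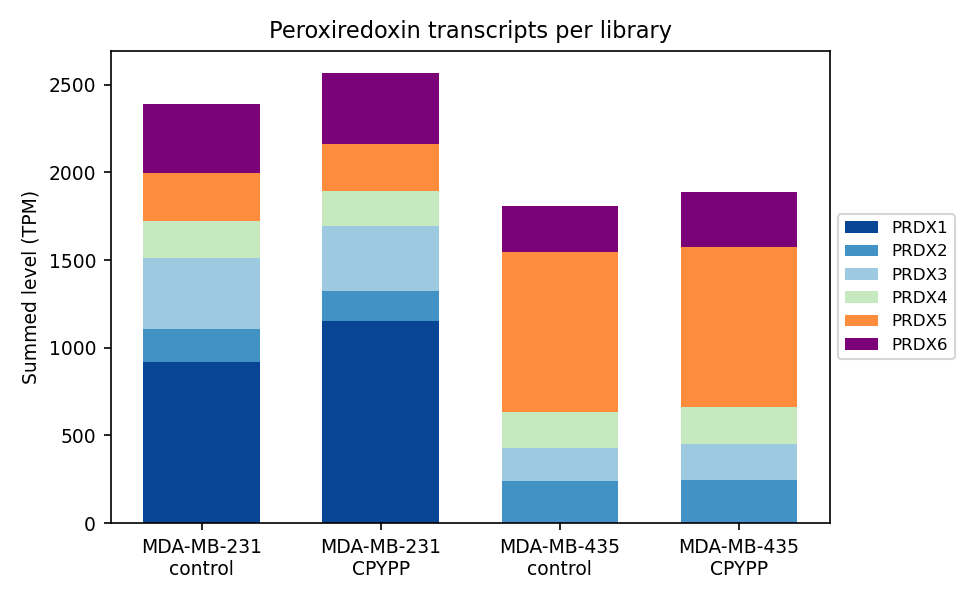
Summed level (TPM) of the 6 peroxiredoxin genes in each library, with 1 colour per gene. PRDX1 makes up 38.5% and 44.9% of the bar in the MDA-MB-231 control and CPYPP libraries and nothing in MDA-MB-435, where PRDX5 makes up 50.6% and 48.4%.

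The 2 lines were also compared before treatment. Of the 10 genes, SRXN1 and PRDX5 were higher and TXNIP, PRDX1 and PRDX3 lower in untreated MDA-MB-435, by the same rule. That is 2 of 10 higher, where 22.2% of 18269 tested genes were, and 3 of 10 lower, where 20.9% were. PRDX5 was 3.16-fold higher (2.97 to 3.36) and SRXN1 2.72-fold higher (2.23 to 3.32). TXNIP was 5.99-fold lower (5.67 to 6.33) and PRDX3 2.23-fold lower (2.15 to 2.32). TXNRD1 stood at 0.552 of its MDA-MB-231 level (0.541 to 0.564) and PRDX6 at 0.638 (0.611 to 0.667), both within the 2-fold threshold. TXN, PRDX2 and PRDX4 had ratios of 0.902, 1.23 and 0.901. The median log2 ratio over the 10 genes was -0.40, beside 0.01 over all tested genes.

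PRDX1 was at least 3110-fold lower in untreated MDA-MB-435 than in MDA-MB-231, taking 3 counts for the count of 0. By TPM it ranked first of the 10 genes in MDA-MB-231 control (919 TPM) and last in MDA-MB-435 (0), where PRDX5 was first with 914 TPM. TXN ranked second in both controls, with 856 TPM in MDA-MB-231 and 810 TPM in MDA-MB-435. Neighbours in the order were often close: in MDA-MB-231 control TXNIP, PRDX3 and PRDX6 had 414, 403 and 390 TPM, and with 1 library each such steps have no spread to be judged against. After CPYPP, TXNRD1 ranked first in both lines, with 2210 and 1880 TPM. The TPM levels rest on the exon length given in the table, which need not be the length of the transcript expressed.

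The absence of PRDX1 counts in MDA-MB-435 extended to its neighbours on lower coordinates. Of 33 genes within 500 kb of PRDX1, 19 had at least 10 counts in both MDA-MB-231 libraries. Of these 19, 3 had 0 counts in both MDA-MB-435 libraries, and they lie side by side: CCDC163, MMACHC and PRDX1, from 45493866 to 45542732 on chromosome 1 (48867 bases). MMACHC, which processes vitamin B12, had 264 and 113 counts in MDA-MB-231 and overlaps PRDX1 by 2469 bases on the other strand. CCDC163 had 34 and 21 counts.

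The genes on either side had counts in all 4 libraries. TESK2, 2.70 kb from CCDC163, had 82 and 93 counts in MDA-MB-231, while MDA-MB-435 had 65 and 47. AKR1A1, an aldo-keto reductase 7.81 kb beyond the start of PRDX1, had 603 and 417 counts in MDA-MB-231, while MDA-MB-435 had 496 and 467. Further out, NASP, a histone chaperone, had 5057 and 3472 counts in MDA-MB-231, while MDA-MB-435 had 2317 and 2051, and ENSG00000289407 had 2 to 16 in any library. The other 16 genes of the 19 had at least 3 counts summed over both MDA-MB-435 libraries. DNA was not measured, and the cause of the missing counts was not tested.

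**Figure D4:**
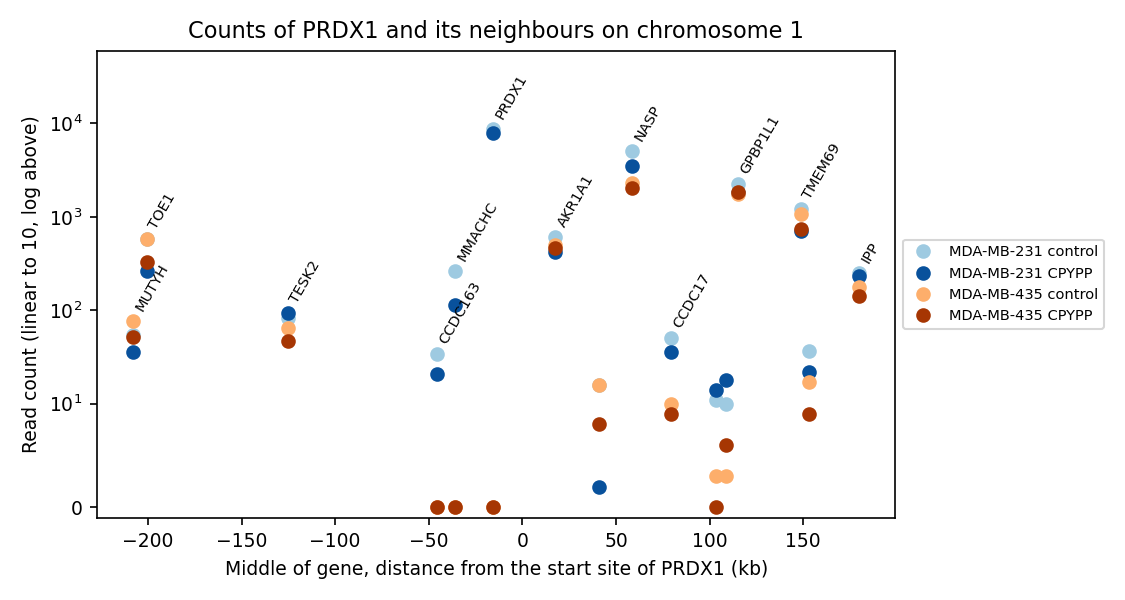
Read counts (linear up to 10, log scale above) of genes with at least 10 counts in a library, placed by the distance of the middle of the gene from the start site of PRDX1 (kb, coordinates increasing to the right; the outermost genes are not drawn). CCDC163, MMACHC and PRDX1 have counts in both MDA-MB-231 libraries and lie at 0 in both MDA-MB-435 libraries, while TESK2 on the left and AKR1A1 on the right have counts in all 4.

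Genes with the same pattern as PRDX1, at least 100 counts in each MDA-MB-231 library and at most 3 in each MDA-MB-435 library, numbered 314, or 3.03% of the 10379 genes with at least 100 counts in both MDA-MB-231 libraries. PRDX1 ranked number 3 of the 314 by summed MDA-MB-231 counts, and first of the 182 that had 0 counts in both MDA-MB-435 libraries. The others with the most counts in MDA-MB-231 were IGFBP4, FLNC, EDIL3, EFEMP1 and F2RL1. IGFBP4, which binds insulin-like growth factors, had 33210 and 18682 counts there and 3 and 1 in MDA-MB-435. EFEMP1, an extracellular matrix protein, had 6797 and 4152 counts and 0 in both MDA-MB-435 libraries. The reverse pattern was seen for 152 genes.

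Pseudogenes of these genes held few reads. Of 17 pseudogenes of the 10 genes in the table, 8 had any count and none had more than 13 in a library. TXNP6 had the largest sum, 30 counts over the 4 libraries. PRDX1P1 had 3 and 2 counts in MDA-MB-231 and 0 in both MDA-MB-435 libraries.

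The effect of CPYPP common to both lines was tested with edgeR's quasi-likelihood test on all 4 libraries with a term for the line. The difference between the responses of the lines leaves 1 residual degree of freedom for each gene. The test sets each gene's error in part from all genes together. A small p-value therefore does not measure how closely the 2 lines matched for that gene. The SE was calculated back from the log2 fold change and the test statistic. SRXN1 had a common log2 fold change of 2.80 ± 0.147 (SE) and a Benjamini-Hochberg adjusted p of 4.00e-06. TXNRD1 had 2.05 ± 0.152 (adjusted p = 5.00e-05) and TXNIP had -2.0 ± 0.114 (adjusted p = 8.24e-06). Ordered by p-value among 16801 genes, SRXN1 was number 10, TXNIP number 11 and TXNRD1 number 24. Thus 2 of 10 were higher, beside 4.39% of all tested genes, and 1 was lower, beside 2.85%. TXN had a log2 fold change of 0.32 ± 0.114 (adjusted p = 0.137), PRDX6 of 0.14 ± 0.114 (adjusted p = 0.55) and PRDX1, which rests on MDA-MB-231 alone, of 0.29 ± 0.158 (adjusted p = 0.341). PRDX2, PRDX3, PRDX4 and PRDX5 lay between -0.05 and -0.01. Without the block for the line, no gene of the table was called by edgeR (167 had an unadjusted p under 0.05, 2 of the 10 among them).

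The size of the response was set side by side between the lines as the fold change in MDA-MB-435 divided by that in MDA-MB-231. The ratio was 1.00 (0.812 to 1.24) for SRXN1 and 1.04 (0.911 to 1.19) for TXNIP. It was 1.59 (1.55 to 1.63) for TXNRD1, the largest of the 9, and 1.25 (1.18 to 1.33) for TXN. For PRDX2 to PRDX6 it lay between 1.11 and 1.28. These intervals cover counting error only, so whether the lines differ in response beyond the spread of cultures was not tested. Scaling by total counts shifts all log2 fold changes by -0.07 in MDA-MB-231 against -0.15 in MDA-MB-435.

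The other genes of the pathway were taken from 6 lists with 52 genes in all, of which MDA-MB-231 gave 50 tested genes and MDA-MB-435 gave 47. Most were not called: 3 were higher in MDA-MB-231 against 4 in MDA-MB-435, and 0 were lower in either. Over all tested genes, 4.22% and 3.17% were higher and 3.09% and 6.52% lower. The median log2 fold change of the tested genes was -0.01 and 0.09. Those called higher in both lines were GSR, SESN2 and SESN3.

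GSR, glutathione reductase, which recycles glutathione with NADPH, had 1580 and 2929 counts in MDA-MB-231, while MDA-MB-435 had 1989 and 4087. Both treated libraries were above both controls, with fold changes of 2.53 (2.38 to 2.69) and 2.65 (2.51 to 2.80). It was 1 of 5 in the list of glutaredoxins and glutathione reductase to be called. The log2 fold changes of the other 4 lay between -0.34 and 0.60. SESN2, a stress-induced sestrin that restrains mTORC1, had 109 and 456 counts in MDA-MB-231, while MDA-MB-435 had 160 and 2719, with fold changes of 5.71 (4.62 to 7.10) and 21.9 (18.7 to 25.9). SESN3, a related sestrin, had 42 and 133 counts in MDA-MB-231, while MDA-MB-435 had 15 and 27, with fold changes of 4.32 (3.03 to 6.27) and 2.32 (1.19 to 4.69). The last interval is wide because of the low counts.

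**Figure D5:**
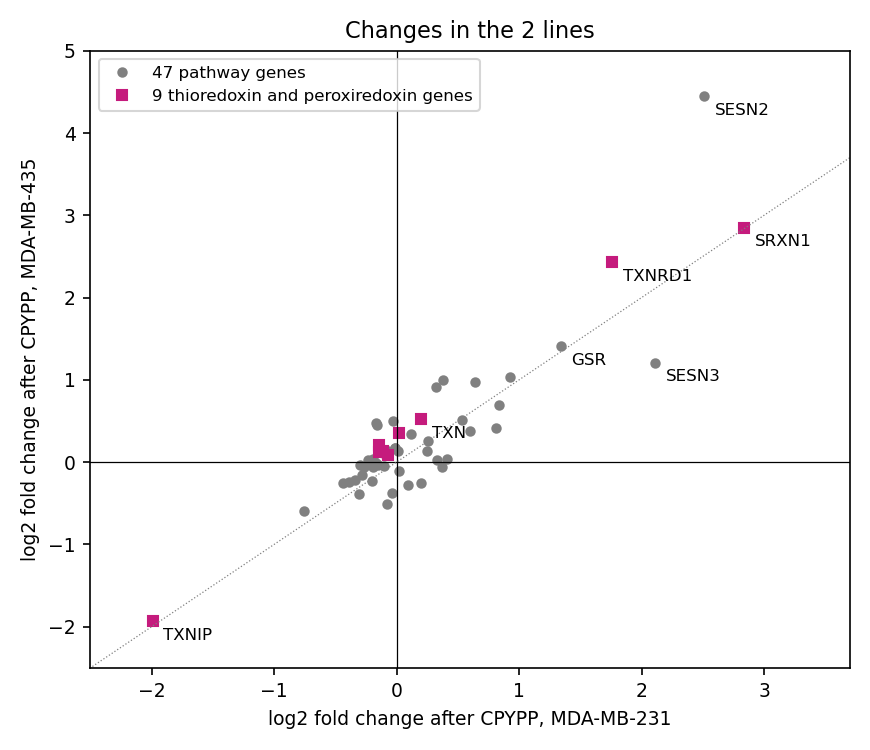
log2 fold change after CPYPP in MDA-MB-231 (x axis) and MDA-MB-435 (y axis) of 47 pathway genes (grey) and 9 thioredoxin and peroxiredoxin genes (pink squares), with a dotted line of equal change. SESN2 is highest in MDA-MB-435 at 4.45, SRXN1 lies on the dotted line, TXNRD1 above it, and TXNIP alone is below -1 in both lines.

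In the list of the other thioredoxins, thioredoxin-like proteins and reductases, 0 of 14 were called in MDA-MB-231 against 1 in MDA-MB-435, TXNL4B (643 and 1018 counts, fold change 2.04, 1.85 to 2.26). In MDA-MB-231 the same gene had 363 and 508 counts and a fold change of 1.91 (1.67 to 2.19). TXNL1, a thioredoxin-like protein of the proteasome, had fold changes of 1.56 and 1.98. The other reductases were not called. TXNRD2, the mitochondrial form, had 246 and 192 counts in MDA-MB-231, while MDA-MB-435 had 1471 and 940, with fold changes of 1.07 (0.877 to 1.29) and 0.824 (0.758 to 0.895), and TXNRD3 had 0.739 (0.618 to 0.881) and 0.843 (0.726 to 0.979).

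None of the 9 enzymes and proteins that thioredoxin reduces was called in either line. RRM2, a subunit of ribonucleotide reductase, had fold changes of 0.764 and 0.845, and MSRB3, a methionine sulfoxide reductase, 1.20 and 1.19. Among the relatives of TXNIP and the factors that bind its promoter, 0 of 6 tested were called in either line. ARRDC3, an arrestin-like relative, had fold changes of 1.79 (1.63 to 1.97) and 1.61 (1.43 to 1.83), opposite in direction to TXNIP. ARRDC4 had 1.30 and 2.0, and ARRDC2 had 1.76 and 1.34. MLX, the partner of MondoA, had 0.806 and 0.764. Of the 5 genes for selenocysteine insertion, on which thioredoxin reductases depend, 0 were called, and SEPSECS had 0.593 (0.470 to 0.742) and 0.664 (0.558 to 0.789).

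In the common effect, 7 of the 50 tested pathway genes were higher and 0 lower, beside 4.39% and 2.85% of all tested genes, at an adjusted p under 0.05 with no minimum fold change. Without the block for the line none of these 7 was called. The edgeR quasi-likelihood adjusted p was 0.000345 for SESN2 (log2 fold change 3.52 ± 0.350) and 0.0372 for SESN3 (1.72 ± 0.427). For GSR the common log2 fold change was 1.33 ± 0.109. TXNL4B (0.94 ± 0.144), TXNL1 (0.76 ± 0.125), ARRDC3 (0.73 ± 0.144) and SOD1 (0.57 ± 0.135), cytosolic superoxide dismutase, were the others.

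Between the untreated lines, 4 of the 50 tested pathway genes were called higher and 9 lower in MDA-MB-435, beside 22.2% and 20.9% of all tested genes. TXNRD2 was 5.58-fold higher there and SEPHS2, which makes selenophosphate, 2.74-fold higher. GPX3, a secreted glutathione peroxidase, had 1952 and 1847 counts in MDA-MB-231, while MDA-MB-435 had 2 and 0. NXN, nucleoredoxin, had 1789 and 1279 counts in MDA-MB-231, while MDA-MB-435 had 10 and 6, and MAP3K5, a kinase bound by thioredoxin, had 192 and 144 in MDA-MB-231, while MDA-MB-435 had 0 and 2.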

How the data were processed

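Poly(A)-selected RNA of 4 libraries was sequenced, and the authors deposited unnormalized read counts for each gene, together with exon lengths and positions. The submitters' processing notes name cutadapt 1.9.1, HISAT2 2.2.1, HTSeq 0.6.1, DESeq2 and the build GRCh37.p13. The strand setting is not given in the sources used here. The positions were checked against GENCODE v29 on GRCh38: of 58254 shared gene IDs, 58159 overlapped, the 10 members included, so coordinates are given as GRCh38.

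Counts were analysed with edgeR 4.0.16, limma 3.58.1 and DESeq2 1.42.0 in R 4.3.3, and in Python 3.11.15 (scipy 1.17.1, pandas 2.3.3, numpy 2.4.6, matplotlib 3.10.9). The code was first tested on simulated counts with counting noise only, which says nothing about false calls from variation between cultures. Genes with at least 10 counts in either library of a comparison were tested with edgeR's two-sided binomial test on TMM-scaled library sizes (TMM factors 0.950 to 1.05 within the lines), and called at an adjusted p under 0.05 and a fold change over 2. For the calls, counts under 3 were set to 3 in the fold change. In the fold changes given, only a count of 0 was replaced by 3 counts, for a bound. The common effect was fitted by edgeR's quasi-likelihood test after filterByExpr. All 10 members are named with every library's value. Pathway genes are named where called the same way in both lines, otherwise up to 3 per list by absolute mean log2 fold change of the 2 lines. Genes named beyond these (TXNRD2 beside TXNRD1, MLX, the genes called in the common effect, and genes that differ between the untreated lines) were chosen after their values were seen. The members and lists were chosen with earlier results of these data known. Protein sequences were not used here.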

Additional observations from a re-analysis of the deposited data

Results flagged for a closer look

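PRDX2, PRDX3, PRDX4 and PRDX5 had fold changes after CPYPP on opposite sides of 1 in the lines, which is why they are listed, although none of the 4 was called in either line. The fold changes were 0.909 in MDA-MB-231 against 1.09 in MDA-MB-435 for PRDX2, and 0.905 and 1.16 for PRDX3. They were 0.926 and 1.09 for PRDX4, and 0.956 and 1.06 for PRDX5, whose interval in MDA-MB-231 (0.878 to 1.04) includes 1. With 1 library per condition the difference between the lines was not tested. The ratio of the fold changes lay between 1.11 and 1.28 for these 4 genes, with counting intervals above 1. These intervals were calculated under TMM scaling only, and that of PRDX5 starts at 1.01. Under scaling by total counts PRDX2, PRDX4 and PRDX5 fall below 1 in MDA-MB-435 as well. PRDX3 keeps opposite directions, at 0.862 in MDA-MB-231 and only 1.04 in MDA-MB-435.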

How the results depend on the processing

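The labels give no replicate numbers, so libraries were paired by line only, in the common effect. Within the lines and between the untreated lines, 196 of 202 values of single genes under an alternative kept their direction and side of the threshold. In 120 of the 202 the log2 fold change was the same number after rounding. The filters, the assumed coefficient of variation and the fold threshold do not enter it, so only the scaling alternatives could reverse a direction. The 4 that reversed did so under scaling by total counts, on the log2 scale: PRDX6 in MDA-MB-231 (-0.05), and PRDX2 (-0.03), PRDX4 (-0.02) and PRDX5 (-0.06) in MDA-MB-435. With a minimum fold change of 1.5, TXNRD1 and PRDX6 pass between the untreated lines.

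The number of members called was the same in 25 of 28 alternatives. Between the untreated lines it went from 5 to 4 with at least 10 counts in every library, and to 7 with a fold change over 1.5. The common effect without the block for the line gave 0 members and 0 genes in place of 3 and 1215. The adjusted p of TXNRD1, TXNIP and SRXN1 was at most 0.000154 in every alternative that kept the block. The calls of the whole table moved more. In MDA-MB-231 they numbered 728 with at least 10 counts in every library, 156 with an assumed coefficient of variation of 0.2 and 2501 with a fold change over 1.5, against 1202. In MDA-MB-435 the values were 991, 271 and 3255, against 1602, and between the untreated lines 4248 with at least 10 counts in every library, against 7872. The common effect gave 1930 with total counts, 2001 with no filter on low counts, 2131 with DESeq2 and 323 with a fold change over 2. Total counts moved the share of higher calls from 32.7% to 19.9% in MDA-MB-435 and from 57.7% to 50.0% in MDA-MB-231. With CPM in place of TPM, 15 of 20 ranks moved. TMM factors over all 4 libraries and the 2-fold minimum for the common effect were chosen after seeing the data. Some moves follow from the setting. A lower fold threshold can only add calls, and a 2-fold minimum can only remove them. The filter of at least 10 counts in every library drops PRDX1 between the untreated lines. Why the other counts moved was not tested. With SRXN1 at 137 counts in 1 control library, its interval is the widest of the 3 members called in MDA-MB-231.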

Other observations

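Runs of neighbouring genes without counts in MDA-MB-435 were counted over the whole table, a count added after the PRDX1 neighbourhood had been seen. Of 14749 genes with at least 10 counts in both MDA-MB-231 libraries, 502 had 0 in both MDA-MB-435 libraries. These formed 12 runs of at least 3 such genes side by side. CCDC163, MMACHC and PRDX1 are 1 of the 12. The longest run held 6 genes, with IGFBPL1 and FAM201A at its ends on chromosome 9. The cause of these runs was not tested.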
